A study of Mus musculus with 6 samples.

Results

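The genes described here encode the proteins of the cytosolic ribosome. They were chosen by name, as all rows called Rpl or Rps followed by a digit plus Rplp0, Rplp1, Rplp2 and Rpsa, leaving out pseudogene rows and the Rps6k kinases. This gave 90 genes of the 17832 in the table. Of these, 43 encode large-subunit proteins, 31 small-subunit proteins and 3 the ribosomal stalk, 12 are paralogs or retrocopies of another member, and 1, Rps19bp1, encodes a protein that binds Rps19 and is not itself a ribosomal protein. The RNA came from splenic CD8+ and CD4+ cells of C57BL/6 mice given Angiotensin-II through osmotic mini-pumps under the skin, sorted by flow cytometry. There were 3 CD8 libraries, numbered 389, 395 and 387, and 3 CD4 libraries, numbered 385, 393 and 395. All 6 libraries came from treated animals, so the comparison asks how CD8 and CD4 libraries differ under treatment and says nothing of angiotensin II itself. The age of the mice is not given in the sources used here. Number 395 stands on 1 library of each kind, and the labels do not say that a number is an animal, so p-values measure the spread between libraries.

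Ribosomes join a small subunit, which reads the messenger RNA, with a large subunit, which forms the peptide bonds. Their proteins are needed in fixed proportions, and their messenger RNAs usually begin with a cytosine followed by a run of pyrimidines, the TOP motif, through which mTOR signalling and the protein Larp1 set how strongly they are translated. Naive lymphocytes carry large stores of these messengers, and activated and dividing cells make many more ribosomes. Values are normalised read counts, that is reads divided by 1 size factor per library. Values of CD8 libraries are given in the order 389, 395 and 387, and values of CD4 libraries in the order 385, 393 and 395.

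The libraries had 10264246 to 14628599 recovered reads, of which 741112 to 1064594 lay in the ribosomal protein genes. The sort showed in the defining genes: Cd8a and Cd8b1 summed to between 6154 and 16592 in the CD8 libraries and to between 80.9 and 145 in the CD4 libraries, and Cd4 and Zbtb7b to between 298 and 477 in CD8 and between 5289 and 7813 in CD4. Transcripts of other spleen cells were present throughout. A list of 7 B cell markers summed to 62951 to 119932 in CD8 and 80213 to 106172 in CD4. A list of 10 erythroid markers summed to 56106 to 99816 in CD8 and 34074 to 72754 in CD4. Of the 7 B cell markers 2 had estimates above 0, with a median log2 fold change, CD8 minus CD4, of -0.28. All 10 erythroid markers had estimates above 0, with a median of 0.49. Of all genes tested 55.6% were above 0. Limma called 0 genes of either list, against 0.49% of all genes tested. A list of 8 dendritic cell genes summed to 23723 to 35739 in CD8 and 3968 to 11702 in CD4, and all 8 had estimates above 0 and an unadjusted limma p under 0.05. Of all genes tested 5.82% passed that unadjusted threshold. Limma called 1 of the 8, Xcr1, against 0.49% of all genes. DESeq2 called 6, namely Cd74, Clec9a, Flt3, H2-Aa, H2-Ab1 and Xcr1, against 2.3% of all genes. The part of such cells in the results below was not tested. These are bulk samples, so fewer cells of a type and less RNA per cell cannot be told apart. CD8 395 stood apart in ribosomal RNA left in the library: Rn18s, the RNA of the small subunit, had 345959 normalised reads there, against 9336 to 49035 in the other 5 libraries. CD8 389 stood apart in its cell content, with the lowest T cell receptor sum and the highest sum of dividing-cell genes.

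The start sites of 6 members are shown for pyrimidine motifs, which the rule did not use: 4 with a motif and 2 without. They are printed for Rps27, the subunit protein gene that varied most between libraries, for Rpl4, the most abundant member, for Rps12, which varied little, for Rps10, which had the lowest fold change, and for Rps2 and Rplp0, whose windows hold neither motif. Each line gives 50 bases before and 50 bases after the annotated start in RefSeq on GRCm38.p6, read 5′ to 3′ on the transcribed strand, with CTTTCC and CTTTTC in capitals.
Rps27, chr3:90213599-90213698, minus strand: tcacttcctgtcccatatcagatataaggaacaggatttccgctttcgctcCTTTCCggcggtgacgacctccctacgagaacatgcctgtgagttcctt
Rpl4, chr9:64173337-64173436, plus strand: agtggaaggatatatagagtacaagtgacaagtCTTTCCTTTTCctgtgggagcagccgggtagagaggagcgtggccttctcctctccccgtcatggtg
Rps12, chr10:23787160-23787259, minus strand: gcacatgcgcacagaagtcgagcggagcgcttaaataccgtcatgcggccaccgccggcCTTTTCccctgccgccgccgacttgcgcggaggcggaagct
Rps10, chr17:27635195-27635294, minus strand: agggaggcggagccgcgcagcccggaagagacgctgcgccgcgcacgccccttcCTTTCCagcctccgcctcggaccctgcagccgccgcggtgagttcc
Rps2, chr17:24720013-24720112, plus strand: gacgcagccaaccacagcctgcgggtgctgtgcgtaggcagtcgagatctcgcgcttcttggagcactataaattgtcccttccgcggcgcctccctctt
Rplp0, chr5:115559417-115559516, plus strand: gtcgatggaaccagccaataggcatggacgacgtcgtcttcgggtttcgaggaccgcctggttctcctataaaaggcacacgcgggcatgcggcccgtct

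In Rpl4 the 2 motifs share a base. The promoter table held 77 start sites of 66 members. On the transcribed strand CTTTCC or CTTTTC occurred in the 100-base window of 33 of these 77, or 42.9%, and in 8.11% of all 32851 windows in the table. On the opposite strand it occurred in 5.19% of the members' windows and 7.56% of all windows. The ETS-type letters CTTCCG occurred on either strand in 35.1% of the members' windows and 9.12% of all windows, and TATAAA in 6.49% and 4.94%. CTTTCC and CTTCCG can share a base, so these matches are not separate. A match is a description of these letters in this window.

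None of the ribosomal protein genes was called different between CD8 and CD4 libraries. Of the 90 genes, 88 reached a normalised count of 10 in 3 or more libraries and were tested, and Rpl32l and Rpl39l were not. Limma's moderated test on log2(value + 1), with Benjamini-Hochberg adjustment over all 13877 genes tested and a threshold of 0.05, called 0 of the 88, where it called 0.49% of all genes. At an unadjusted p under 0.05 there were also 0, where 5.82% of all genes passed, and on the recovered reads edgeR called 0, against 0.425% of all genes, and DESeq2 0, against 2.3%, with 0 by either at an unadjusted p under 0.05. With shares of called genes this low, 0 calls among 88 genes say little about them. The lowest limma adjusted p among the 88 was 0.946. The log2 fold changes, CD8 minus CD4, ran from -0.20 to 0.31 with a median of 0.07, and the median over all genes tested was 0.04. For 87 of the 88 the 95% interval of the log2 fold change lay inside -1 and 1, as it did for 59.4% of all genes. The exception was the retrocopy Rps3a3, whose interval reached 1.03. The intervals of those 87 genes thus lay within a 2-fold difference either way, which does not show that the groups were alike. All genes tested were not matched to the members for level, so the shares of narrow intervals are not directly comparable.

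**Figure D1:**
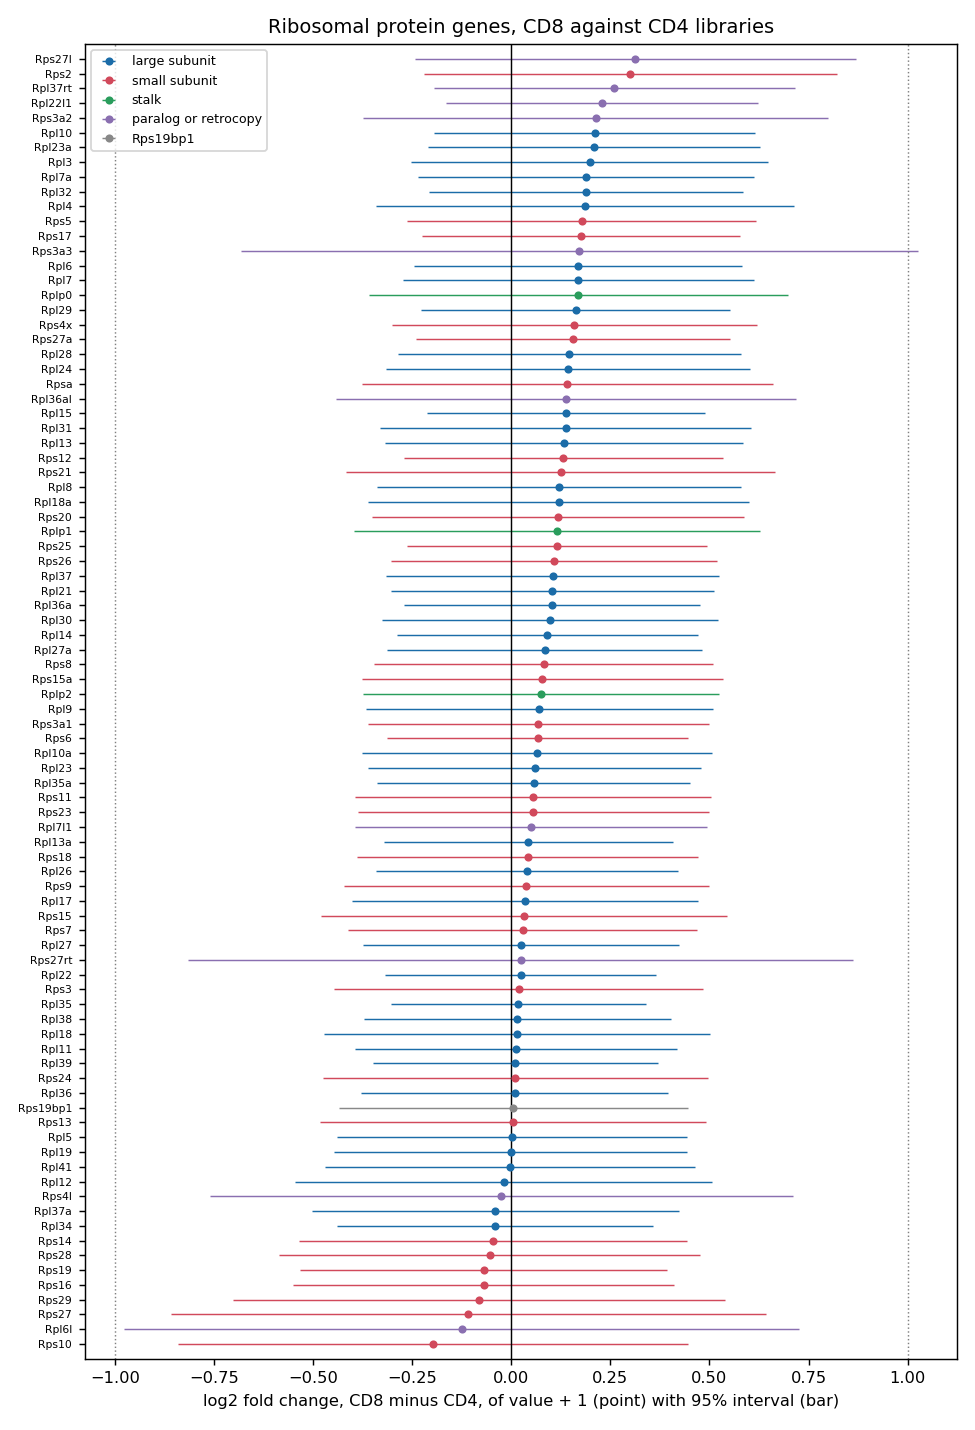
Log2 fold change, CD8 minus CD4, of log2(value + 1) for the 88 ribosomal protein genes tested, as points with the 95% interval of the limma fit over 3 CD8 and 3 CD4 libraries, coloured by subunit. All 88 intervals cross 0, and the estimates run from -0.20 for Rps10 to 0.31 for Rps27l.

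Small positive estimates were common, and their number changed with 1 library and with the scaling. The estimate was above 0 for 74 of the 88 genes and for 55.6% of all genes. It was above 0 for 34 of the 88 without CD8 395, where the median became -0.02, for 83 without CD8 389, for 60 under TMM scaling, for 48 when libraries were scaled to their totals and for 88 when libraries were rescaled on T cell receptor genes. The scalings moved all genes alike: the median of all genes was 0.01 under TMM, -0.02 with library totals and 0.72 when rescaled on T cell receptor genes, and the members' median stood 0.03, 0.03 and 0.04 above it, against 0.03 as first scaled. Without CD8 395 the members' median stood at -0.07 relative to that of all genes. The summed signal of the 90 genes was 807795, 1016169 and 893285 in CD8 389, 395 and 387, against 826576, 825855 and 880238 in CD4 385, 393 and 395. The CD8 libraries held both the lowest and the highest sum, so the groups overlapped. As a share of recovered reads this was 6.43%, 8.20% and 7.28% in the CD8 libraries, against 6.76%, 7.22% and 7.34% in the CD4 libraries.

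Ranges that did not overlap were found for 9 of the 88 genes with the CD8 libraries above, where 4.93% of all genes had such ranges, and for 0 with the CD8 libraries below, where 5.28% did. The 9 were Rps2, Rps3a2, Rpl10, Rpl3, Rpl32, Rpl4, Rpl6, Rps4x and Rps12, and each had its lowest value in CD4 393. The rule for naming genes did not cover Rpl32 and Rpl6, which were picked out after their values were seen.

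The large subunit holds the catalytic centre and the exit tunnel. Rpl4, which lines the tunnel through which the new peptide leaves, had the highest mean of the 90 genes. It stood at 38054, 36541 and 36602 normalised reads in CD8 389, 395 and 387, against 34763, 29018 and 34249 in CD4 385, 393 and 395. The CD8 values were all above the CD4 values by a small margin, and the log2 fold change was 0.19 (SE 0.23, limma adjusted p = 0.946). Rpl3, which reaches towards the peptidyl transferase centre, had 22661, 23617 and 20699 in the CD8 libraries, against 19717, 18299 and 20352 in the CD4 libraries (0.20, SE 0.19). Rpl10, which joins the large subunit late and is needed before it can pair with the small one, had 15603, 16250.1 and 15088 in CD8 libraries, against 14261, 12651 and 13698 in CD4 libraries. Its log2 fold change was 0.21 (SE 0.17), with a 95% interval of -0.20 to 0.62.

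Rpl5 and Rpl11 form a complex with ribosomal RNA that binds Mdm2 and stabilises p53 when ribosome assembly fails. Rpl5 had 11085, 14799.7 and 12736 in CD8 libraries, against 11845, 13292 and 13226 in CD4 libraries, and Rpl11 had 7434, 9815 and 8431 against 7936, 8508 and 8877. Both ranges overlapped, with log2 fold changes of 0.00 and 0.01. Rpl22, which developing alpha-beta T cells need, had 5031, 5782 and 4998 in CD8 libraries, against 4991, 5100.4 and 5439 in CD4 libraries. Its log2 fold change was 0.02, with an interval of -0.32 to 0.37. Rpl38, known in the mouse for its part in translating Hox messengers, had 3130.1, 4134 and 3377 in CD8 libraries, against 3119, 3592 and 3776 in CD4 libraries. Rpl39, a small protein at the tunnel exit, had 3498, 4186 and 4378 in CD8 libraries, against 3695, 4206 and 4036 in CD4 libraries. Rpl41, the shortest member, with a coding length of 75 bases, had 6839, 10169.8 and 8679.5 in CD8 libraries, against 7696, 8429 and 9373 in CD4 libraries. In each of these 4 genes the CD8 and CD4 ranges overlapped.

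The small-subunit genes spread further, in both directions. Rps2, which sits at the entry of the messenger channel, had the highest estimate of the subunit. It had 22948, 22007 and 21040.1 normalised reads in CD8 389, 395 and 387, against 20966, 14158 and 19198 in CD4 385, 393 and 395. CD4 393 was far below the others, while CD4 385 lay just under the lowest CD8 library, and the log2 fold change was 0.30 (SE 0.22, 95% interval -0.22 to 0.82). Rps4x, encoded on the X chromosome, had 24415, 26501 and 24711 in CD8 libraries, against 22724, 21458 and 23553 in CD4 libraries, with a log2 fold change of 0.16 (SE 0.20). Rps12 had 15339.6, 15897 and 15836 in CD8 libraries, against 14918, 13682 and 14388 in CD4 libraries, and was 1 of the 3 members with the smallest spread over the 6 libraries. The other two were Rpl35, at 4010.0, 4394 and 4306 in CD8 libraries and 4017, 4114 and 4426 in CD4 libraries, and Rps3a1, which ranged 1.16-fold.

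At the lower end stood Rps27, Rps29 and Rps16. Rps27, a zinc-binding protein, had 6554, 15118 and 10563 in CD8 libraries, against 8759, 12929 and 11582 in CD4 libraries. The CD8 libraries alone spanned the full range of 2.31-fold, so the estimate of -0.11 had an SE of 0.32 and an interval of -0.86 to 0.64. Rps29, another small zinc-binding protein, had 5559.8, 10717 and 6781 in CD8 libraries, against 6585, 8397 and 8652 in CD4 libraries. Rps16 had 7242, 10608 and 10034 in CD8 libraries, against 8552, 10244 and 10177 in CD4 libraries, and an estimate of -0.07. In these 3 genes CD8 389 was the lowest library and CD8 395 the highest.

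Other small-subunit proteins with known separate roles gave log2 fold changes between -0.07 and 0.15. Rps6, the substrate of the kinases that mTOR activates, had 7883, 9709.6 and 8861 in CD8 libraries, against 8194, 8269.6 and 8703 in CD4 libraries (log2 fold change 0.07, SE 0.16). Rps19, whose loss causes Diamond-Blackfan anaemia in humans, had 7388, 10795 and 9957 in CD8 libraries, against 9039.8, 10368 and 9789 in CD4 libraries. Rps3, which lies at the channel entry and also takes part in DNA repair, had 15786, 19867 and 20393 in CD8 libraries, against 17692, 18907 and 18402 in CD4 libraries. In these 3 genes CD8 389 was the lowest library. Rps27a, made as a fusion with ubiquitin, had 12002, 13650.4 and 11551 in CD8 libraries, against 11144, 10651 and 11551 in CD4 libraries. Rpsa, also known as the laminin receptor, was among the 5 most abundant members, with 30835, 37514 and 33631 in CD8 libraries against 31008, 29063 and 32156 in CD4 libraries. Each of these 5 genes had overlapping ranges, although those of Rps27a barely met.

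The stalk proteins draw elongation factors to the ribosome, and Rplp0 and Rplp1 were among the 5 most abundant members. Rplp0, the base of the stalk and a common reference gene for quantitative PCR, had 33529, 38791 and 36270.3 in CD8 libraries, against 34629, 29166 and 32899.7 in CD4 libraries, with an interval of -0.36 to 0.70. Rplp1 had 18732, 26865 and 22911 in CD8 libraries, against 20739, 19902 and 21969 in CD4 libraries. Rplp2 had 9625, 13495 and 11892 in CD8 libraries, against 10356, 10971 and 11637 in CD4 libraries. Rplp1 and Rplp2 pair in the stalk, and both were lowest in CD8 389 and highest in CD8 395. The summed small subunit stood at 0.752, 0.790 and 0.799 times the large subunit with the stalk in the CD8 libraries, against 0.778, 0.813 and 0.794 in the CD4 libraries.

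Paralogs and retrocopies held the highest estimate and much of the spread. Rps27l, a paralog of Rps27 that p53 induces, had 1235, 1068 and 988 normalised reads in CD8 389, 395 and 387, against 1012, 613 and 1096 in CD4 385, 393 and 395. CD4 393 was far below the rest, and the other CD4 libraries lay within the CD8 range. The log2 fold change was 0.31 (SE 0.24, 95% interval -0.24 to 0.87). Rpl22l1, the paralog of Rpl22, had 1962, 2007 and 1718 in CD8 libraries, against 1505, 1422 and 1963 in CD4 libraries (0.23, SE 0.17). Ratios within a library do not depend on the scaling. Rpl22l1 was 39.01%, 34.7% and 34.4% of Rpl22 in the CD8 libraries, against 30.2%, 27.9% and 36.1% in the CD4 libraries. Rps27l was 18.8%, 7.06% and 9.35% of Rps27 in CD8 libraries, against 11.6%, 4.74% and 9.46% in CD4, a 3.98-fold range that was highest in CD8 389 and lowest in CD4 393. Rpl7l1, a paralog of Rpl7 with its own role in assembly, was 7.69%, 5.62% and 7.52% of Rpl7 in CD8 libraries, against 8.83%, 6.51% and 7.24% in CD4.

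The remaining copies had low values. Rpl39l, which in the mouse is made mainly in male germ cells, had 2 reads in the 3 CD8 libraries together and 11 in the 3 CD4 libraries. The ratio of CD8 to CD4 was 0.174, with an exact binomial 95% interval of 0.0188 to 0.799 that covers counting error only. Rpl32l had 6.38 to 11.1 normalised reads over all libraries. Rpl37rt had 212, 275 and 223 in CD8 libraries, against 191, 186 and 213 in CD4 libraries, and Rps3a2 had 70.3, 84.8 and 69.6 in CD8 libraries, against 65.9, 59.1 and 68.1 in CD4 libraries. The ranges barely overlapped in Rpl37rt and did not overlap in Rps3a2. Rpl6l had 30.5, 30.2 and 21.8 in CD8 libraries, against 29.96, 22.3 and 39.4 in CD4 libraries. Rps4l ranged from 39.4 to 63.5 with overlapping ranges. Rps27rt ranged 2.56-fold over the libraries and kept close to Rps27, at 1.20%, 1.33% and 1.38% of it in CD8 libraries, against 1.27%, 1.03% and 1.28% in CD4. Of the 50-base words in the Rps27rt transcript, 91.1% also occur in another annotated gene, mostly in Rps27, so reads of the pair may not be separable. Rpl3l and Rpl10l, whose names match the rule, were not among the 17832 genes in the table.

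The difference between single libraries was larger than that between the groups. CD8 395 was the highest library for 75 of the 88 genes, or 85.2%, where it was the highest for 17.7% of all genes tested. CD8 389 was the lowest for 43 and CD4 393 for 30. Relative to each gene's own mean, the members' median deviation on the log2 scale was -0.13, 0.22 and 0.02 in CD8 389, 395 and 387, against -0.08, -0.06 and 0.02 in CD4 385, 393 and 395, while the median of all genes stayed between 0.00 and 0.03. The members' median SD over the 6 libraries was 0.163 on the log2 scale, against 0.327 for all genes tested. These sets were not matched for level, so the lower SD cannot be read as a trait of the members. Of the 90 members, 78 had a mean of 1000 or more, whereas genes tested had only to reach 10 in 3 libraries.

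Short and long members did not follow the same libraries. The 77 proteins of the large subunit, the small subunit and the stalk were split by coding length into 27 short (75 to 405 bases), 24 middle (408 to 564) and 26 long (576 to 1257) genes. In CD8 389 the short genes had a median deviation of -0.19 and the long genes -0.04, while in CD4 393 the short genes had -0.03 and the long genes -0.15. CD8 395 gave 0.27 and 0.19, CD8 387 gave 0.03 and 0.04, CD4 385 gave -0.12 and -0.06, and CD4 395 gave 0.03 and -0.00. Across these 77 genes, which share the libraries and their depth and are not independent, Pearson's r between log2 coding length and the deviation was 0.51, -0.38 and 0.16 in CD8 389, 395 and 387, against 0.54, -0.49 and -0.42 in CD4 385, 393 and 395. Over the 12141 genes tested that have a coding length, r lay between -0.18 and 0.06. Each gene's deviations add up to 0 over the 6 libraries, so r had to take both signs among them. Both signs also occurred within each group. The ratio of Rps2 to Rps27, a long and a short gene of the same subunit, was 3.501, 1.46 and 1.99 in CD8 libraries, against 2.39, 1.10 and 1.66 in CD4 libraries. Rps2 had the highest estimate and Rps27 the largest spread of the small subunit, so this pair does not stand for the others. The ratio of Rpl4 to Rps29 was 6.84, 3.41 and 5.40 in CD8 libraries, against 5.28, 3.46 and 3.96 in CD4 libraries.

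**Figure D2:**
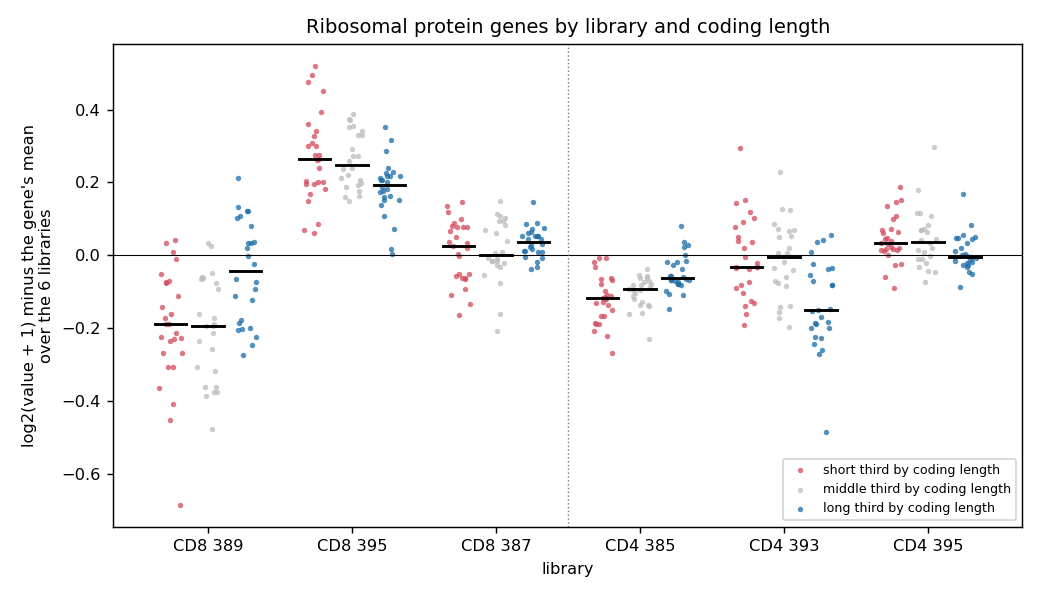
Deviation of log2(value + 1) from each gene's own mean over the 6 libraries, for 77 ribosomal protein genes split into short, middle and long coding length, with a black bar at each median, CD8 libraries left and CD4 libraries right. Medians of the short genes run from -0.19 in CD8 389 to 0.27 in CD8 395, and the long genes are lowest in CD4 393 at -0.15.

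Markers of cell content also differed between single libraries. The 15 genes of the T cell receptor list summed to 13546, 43998 and 33276 in CD8 389, 395 and 387, against 30738, 58462 and 46286 in CD4 385, 393 and 395. The 10 genes of dividing cells summed to 59892, 26974 and 28061 in CD8 libraries, against 32604, 18874 and 27250 in CD4 libraries. The libraries with the lowest T cell receptor sums, CD8 389 and CD4 385, also had the lowest Rps27, Rps29, Rps28 and Rps21 and the highest sums of dividing-cell genes. The members as a whole did not follow these sums in every library. CD4 393 had the highest T cell receptor sum and the lowest dividing-cell sum, and the members' median deviation there was -0.06. Rps28 had 3011, 5250.5 and 3818 in CD8 libraries, against 3513, 4338 and 4437 in CD4 libraries, and Rps21 had 4356, 7797 and 5922, against 4813, 5476 and 5886. Rps28 and Rps21 were picked out after their values were seen. No gene of either marker list was at 0 in any library. Each list also leaned to 1 side between the groups. Estimates, CD8 minus CD4, were above 0 for 0 of the 15 T cell receptor genes (median log2 fold change -0.74). They were above 0 for all 10 dividing-cell genes (median 0.49) and for 55.6% of all genes. Limma called 0 genes of either list, against 0.49% of all genes. An unadjusted p under 0.05 was reached by 2 of the 15 T cell receptor genes, 0 of the 10 others and 5.82% of all genes. DESeq2 called Cd28 of the T cell receptor list and 0 dividing-cell genes, against 2.3% of all genes. The part of cell content and of the ribosomal RNA left in CD8 395 in these values was not tested. With Rn18s, mt-Rnr1 and mt-Rnr2 left out of the total, the members' share of reads was 6.45%, 8.46% and 7.29% in CD8 libraries, against 6.77%, 7.24% and 7.38% in CD4 libraries.

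**Figure D3:**
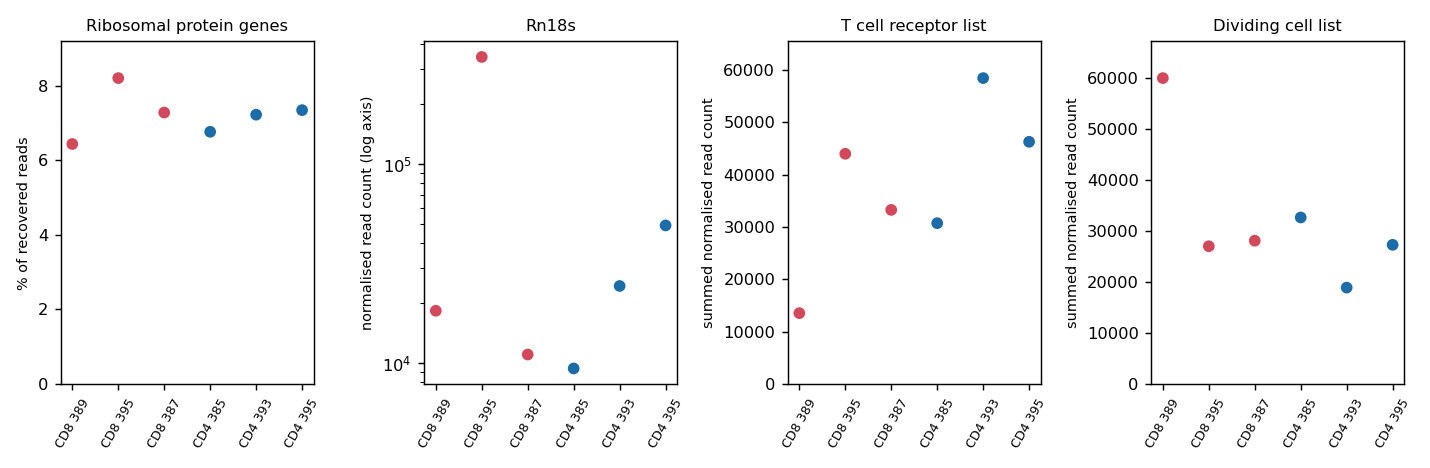
Values in each library, CD8 in red and CD4 in blue, of the share of recovered reads in the 90 ribosomal protein genes, the normalised read count of Rn18s on a log axis, and the summed normalised read counts of the T cell receptor list and of the dividing-cell list. CD8 395 has the highest ribosomal protein share at 8.20% and an Rn18s value of 345959, and CD8 389 has the lowest share at 6.43% with a dividing-cell sum of 59892.

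Levels were compared between genes per 1000 bases of coding length, a scale that favours genes with long untranslated ends relative to their coding part. Of the 77 proteins of the large subunit, the small subunit and the stalk, 74 had between 8630.2 normalised reads per kb, for Rpl27, and 113748 for Rpl41, with a median of 22127. The median was 24305 for the 30 small-subunit genes among them and 17657 for the 41 large-subunit genes. The other 3 stood far below. Rpl13a had 1968 per kb, Rpl24 had 568 and Rps10 had 516, although each is 1 protein of every ribosome.

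Those 3 genes and the paralog Rpl36al, at 249.8 per kb, were also the 4 members with more than 50% of their exon bases inside another annotated gene on the same strand in GENCODE M21. The share was 59.3% for Rpl13a, 71.5% for Rpl24, 53.6% for Rps10 and 63.1% for Rpl36al. It was 10.7% for Rpl19, at 17773 per kb, and 0 for the other 85. GENCODE M21 is on GRCm38, whereas the processing notes name GRCm39. The genes overlapping Rpl13a, Rpl24 and Rps10, namely Gm45713, Gm28037 and RPS10-NUDT3, were not among the 17832 genes under these names. Gm49383, which overlaps Rpl36al, had 0.925 to 3.34 normalised reads. How the authors' counting treated reads that fall in 2 genes is not given in the sources used here. The values of Rpl13a, Rpl24, Rps10 and Rpl36al are therefore uncertain, and the part of the overlap in them was not tested. Their CD8 and CD4 ranges overlapped. Rps10 had 179, 327 and 216 normalised reads in CD8 libraries, against 212, 292 and 306 in CD4 libraries (log2 fold change -0.20, SE 0.28), and Rpl13a had 1225.0, 1197 and 1212 in CD8 libraries, against 1225.0, 988 and 1342 in CD4 libraries. Sequence was also shared with other annotated genes, and not always of the same kind. Of the 50-base words of Rps27, at 43324 per kb, 98.6% were shared, most often with Rps27rt. The share was 91.1% for Rps27rt, at 541 per kb, most often with Rps27. It was 81.7% for Rpl24, at 568 per kb, most often with Gm28037, the gene that also overlaps its exons. The part of shared sequence in the levels was not tested.

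**Figure D4:**
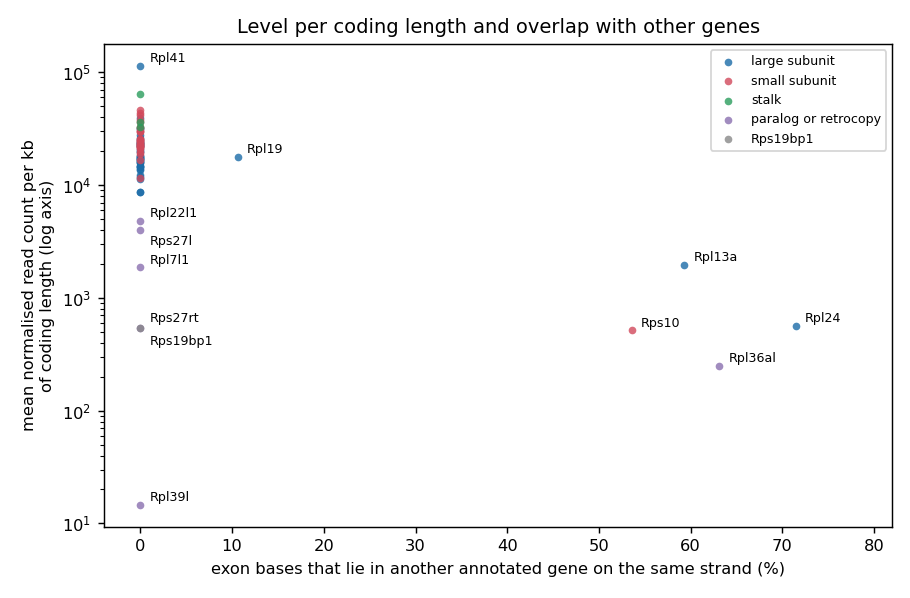
Mean normalised read count per kb of coding length over the 6 libraries, on a log axis, against the percentage of exon bases that lie in another annotated gene on the same strand, for the 84 ribosomal protein genes with a coding length. Rpl13a, Rpl24, Rps10 and Rpl36al lie right of 50% and between 249.8 and 1968 per kb, and 74 subunit and stalk genes lie between 8630.2 and 113748.

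Some ribosomal proteins carry other names. Rack1, a scaffold on the small subunit, had 25173, 29494 and 26924 in CD8 libraries, against 25861, 21732 and 24877 in CD4 libraries. Fau, made as a fusion with a ubiquitin-like protein, had 5135, 7954 and 7344 in CD8 libraries, against 6497, 7456 and 7422 in CD4 libraries. Limma, edgeR and DESeq2 called neither.

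The genes that build and drive ribosomes were not called either, in any of the lists below by limma, edgeR or DESeq2, and 0 members passed an unadjusted limma p under 0.05. Over all genes limma called 0.49%, edgeR 0.425% and DESeq2 2.3%, and 5.82% passed the unadjusted limma threshold. With such low shares called, 0 calls in lists this short say little about them. Of 42 ribosome biogenesis genes 39 had estimates above 0, with a median log2 fold change of 0.10. Of all genes tested 55.6% were above 0, with a median of 0.04. How the counts above 0 in this and the following lists change with the scaling or with single libraries was not tested. Ncl, the nucleolar protein nucleolin, had 27851, 17365 and 17215 in CD8 389, 395 and 387, against 18575, 15775 and 20901 in CD4 385, 393 and 395. The sum of this list was highest in CD8 389, at 104222 against 69030 to 88213 in the CD4 libraries, whereas the ribosomal protein sum was lowest there. The biogenesis sums of CD8 395 and 387, at 77762 and 81057, lay within the CD4 range. The 14 tested genes of RNA polymerase I, which transcribes ribosomal RNA, had a median of 0.07, and its factor Ubtf had 4097, 3331 and 3627 in CD8 libraries, against 4056, 3262 and 3798 in CD4 libraries.

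In the list of elongation factors and other TOP messengers, 19 of 20 estimates were above 0, against 55.6% of all genes, with a median of 0.15. Eef1a1, which delivers transfer RNA to the ribosome, had 129829, 122206 and 138812 in CD8 libraries, against 130957, 104201 and 119367 in CD4 libraries. Of 25 initiation factors all 25 were above 0, with a median of 0.18. Their sum was 134254 in CD8 389, while 100757 and 106511 in CD8 395 and 387 lay within the CD4 range of 85152 to 111832. Eif4g2 had 17709, 10839 and 14314 in CD8 libraries, against 14832, 10209 and 14086 in CD4 libraries. The 22 genes of mTOR signalling and TOP regulation had a median of 0.02 with 13 above 0. Larp1 had 4651, 3261 and 4304 in CD8 libraries, against 4599, 3441 and 4043 in CD4 libraries. The 13 tested chaperones and exporters of ribosomal proteins had a median of 0.15, the 16 tested genes of ribosome quality control 0.09 and the 10 genes of p53 and ribosomal stress 0.10.

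Mitochondrial ribosomal proteins, which serve the separate ribosome of that organelle, were not called either. Of 78 such genes 77 were tested and limma called 0, against 0.49% of all genes, with 0 at an unadjusted limma p under 0.05, against 5.82%. EdgeR called 0, against 0.425% of all genes, and DESeq2 0, against 2.3%. With shares of called genes this low, 0 calls among 77 genes say little about them. Their median log2 fold change was 0.15, against 0.07 for the cytosolic genes, and the difference between the sets was not tested. Estimates were above 0 for 72 of 77, against 55.6% of all genes. Their sum was 47459, 45451 and 40768 in CD8 libraries, against 41575, 34945 and 44174 in CD4 libraries. CD8 389 was the highest library here and the lowest for the cytosolic genes.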

How the data were processed

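RNA of 3 CD8 and 3 CD4 sorted spleen samples was sequenced from stranded poly(A) libraries, per the labels' protocols. The deposited signal per gene was made by the authors from read counts divided by 1 size factor per library, and 100% of values were whole multiples of 1 read within 0.001 reads. STAR 2.7.5c, featureCounts 2.0, DESeq2 and GRCm39 are named, without roles, in the submitters' processing notes; the sources used here give no annotation, strand setting or treatment of shared reads.

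Log2(value + 1) was fitted with limma 3.58.1 (R 4.3.3, trended variance) on 13877 genes that reached 10 in 3 libraries or more, with two-sided Benjamini-Hochberg adjusted p-values. EdgeR 4.0.16 and DESeq2 1.42.0 were run on the recovered reads, and all 3 were tested on simulated data. Intervals are 95% limits of the moderated fit. Coding lengths (13692 genes), 50-base words and overlaps came from GENCODE M21 on GRCm38, matched by symbol, taking the principal, best-supported and then shortest transcript. Start sites came from RefSeq on GRCm38.p6.

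Genes named are the 5 highest and 5 lowest fold changes, the 5 highest means, the 3 largest and 3 smallest SDs, paralogs, members with a textbook role and, per other list, up to 2 of the highest means. Retrocopies and others outside this rule were added after their values were seen. Members and lists were chosen with earlier results of these data known. Fold changes on this scale understate the change of low genes.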

Additional observations from a re-analysis of the deposited data

How the results depend on the processing

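Alternatives planned were other pseudocounts, no filter on low values, limma without a trend, edgeR, DESeq2, 3 other scalings, a replicate block and leaving out each library. No ribosomal protein gene was called in any of these 16 alternatives, and the lowest adjusted p of a member ranged from 0.515, when rescaled on T cell receptor genes, to 0.9999, without CD4 393. Rpl39l, untested otherwise, had an unadjusted p under 0.05 without the filter, the only member in any alternative. The median log2 fold change of the members was 0.76 when rescaled on T cell receptor genes, and the log2 ratio of their summed signal, CD8 over CD4, was 0.87 against 0.10 as reported. All genes tested had a median of 0.72 under that rescaling, so the shift was not particular to the members. When a library was left out the members' median ranged from -0.02 to 0.17 and the log2 ratio from 0.01 to 0.18. The cause of the changes when a library was left out was not tested.

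As reported, limma found 68 genes in all, 39 of them higher in CD8. There were 104 with a pseudocount of 5, 319 with DESeq2 and 112 when rescaled on T cell receptor genes, 95 of these being higher in CD8. Leaving out 1 library gave 7 to 46. With a replicate block, a term for the number 395 that 1 library of each group carries, 44 genes and 0 members were called. Only that number is shared, so whether the numbers pair the libraries could not be checked. Depth limits the lowest members: 12 of the 90 had a mean under 1000, and Rpl39l had 2 CD8 reads and 11 CD4 reads.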

Other observations

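The table also held 110 rows named as pseudogenes of ribosomal protein genes. They summed to 2746, 4444 and 3423 normalised reads in CD8 389, 395 and 387, against 3047, 3391 and 3785 in CD4 385, 393 and 395, or 0.340% to 0.437% of the members' sum in CD8 and 0.369% to 0.430% in CD4. Limma called 0 of the 51 that were tested, against 0.49% of all genes, with 0 at an unadjusted p under 0.05, against 5.82%. With a share of called genes this low, 0 calls among 51 rows say little about them. Like the genes they derive from, these rows were highest in CD8 395 and lowest in CD8 389. Whether their reads came from the parent genes was not examined.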
